A study of Rattus norvegicus with 24 samples.

Results

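The let-7 family of microRNAs was followed in the lung of rats that breathed hexanal, a volatile aldehyde, or clean air. The 8 miRNAs described here are every mature 5p let-7 miRNA, together with miR-98-5p, that the scanner files list under its systematic name, out of 719 rat miRNAs on the array and 283 that were tested. They are rno-let-7a-5p, rno-let-7b-5p, rno-let-7c-5p, rno-let-7d-5p, rno-let-7e-5p, rno-let-7f-5p, rno-let-7i-5p and rno-miR-98-5p and were chosen by name. The relative rno-let-7g-5p was not analysed here. Each of 24 Agilent arrays held the total RNA of 1 lung sample of a Fischer-344 rat, an inbred strain obtained at 7 to 8 weeks of age. The control group breathed filtered clean air, and the other groups breathed hexanal at 600, 1000 or 1500 ppm for 4 h per day on 5 days per week over 5 weeks, as the labels give it. The study's methods state a different length of exposure. Each of the 4 groups held 3 males and 3 females. The sample titles write the dose in ppm and the protocol of the labels writes the same numbers as milligrams per cubic metre, so ppm serves here as the name of a dose. The labels do not say whether RNA of several rats was pooled, and the tests measure only the spread between these samples. In whole lung tissue, fewer cells of a type and less RNA per cell cannot be told apart.

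A mature miRNA guides an Argonaute protein to messenger RNAs, chiefly by pairing through its seed, the short stretch near its 5′ end, and the messenger is then translated less or degraded sooner. let-7 is scarce in early embryonic cells and rises as tissues differentiate, and the RNA-binding protein LIN28 holds back the maturation of its precursors. Ras genes, Hmga2 and Lin28 itself are known targets, and in the lung let-7 is best known as a brake on proliferation whose level is low in many lung tumours. Because the members share a seed, they are commonly treated as having overlapping targets.

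The mature sequences are shown because they carry both what the members have in common and the few bases by which a probe must tell them apart. They were taken from RefSeq (build GRCr8), where all 8 had an entry, and the capitals mark the seed, bases 2 to 8 from the 5′ end.
rno-let-7a-5p: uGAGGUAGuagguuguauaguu
rno-let-7b-5p: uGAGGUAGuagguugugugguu
rno-let-7c-5p: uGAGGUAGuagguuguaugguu
rno-let-7d-5p: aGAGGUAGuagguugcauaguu
rno-let-7e-5p: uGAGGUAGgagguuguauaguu
rno-let-7f-5p: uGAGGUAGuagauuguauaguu
rno-let-7i-5p: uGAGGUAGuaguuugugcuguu
rno-miR-98-5p: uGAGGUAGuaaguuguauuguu

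All 8 sequences were 22 bases long with the same seed. Counted from 1 at the 5′ end, with the base of rno-let-7a-5p first, rno-let-7c-5p differed by A19G, rno-let-7e-5p by U9G and rno-let-7f-5p by G12A. rno-let-7b-5p differed by A17G and A19G, rno-let-7d-5p by U1A and U16C, and rno-miR-98-5p by G11A and A19U. rno-let-7i-5p was the most distant, with G12U, A17G, U18C and A19U. Over all 28 pairs the members differed by 1 to 6 bases. Base composition also differed, from 7 G or C bases in rno-let-7f-5p and rno-miR-98-5p, through 8 in rno-let-7a-5p and 9 in rno-let-7c-5p, rno-let-7d-5p, rno-let-7e-5p and rno-let-7i-5p, to 10 in rno-let-7b-5p.

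The members come from 11 places on 6 chromosomes in RefSeq GRCr8, so 3 of them have more than 1 source. rno-let-7a-5p lies at chr17:16320145-16320166 and at chr8:50805219-50805240, both on the plus strand, and the chromosome 17 copy shares a noncoding RNA gene with a copy of rno-let-7f-5p (chr17:16320508-16320529) and with rno-let-7d-5p (chr17:16322273-16322294). The second copy of rno-let-7f-5p (chrX:24460052-24460073) and rno-miR-98-5p (chrX:24460663-24460684) sit together within the span of Huwe1, which encodes a ubiquitin ligase. rno-let-7b-5p (chr7:118684044-118684065) neighbours a copy of rno-let-7c-5p (chr7:118683636-118683657), whose other copy is at chr11:29688127-29688148. rno-let-7e-5p lies at chr1:67350243-67350264 within the span of Spaca6, a gene known for its part in fertilization, and rno-let-7i-5p at chr7:60527935-60527956 on the minus strand. An array reads the mature RNA and cannot tell the copies of 1 member apart.

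Each member had 2 probes of 10 spots each, and all 16 probes were well above background on all 24 arrays. Levels are log2 of the processed intensity after the arrays were scaled to a common 75th percentile, averaged over the 2 probes. Because probes differ in how brightly they read the same amount of RNA, the level of 1 member is not set against that of another. On each array 27.9% to 38.5% of the spots were well above background, and no spot was saturated. The marker list for lung epithelium and endothelium was tested in full (5 of 5 above background on all arrays), and rno-miR-124-3p, a brain miRNA, was above background on 0 arrays. rno-miR-122-5p, a liver miRNA, was above background on 21 arrays, with a mean log2 level of 4.46. The arrays lay on 3 slides of 8, and the slides were unevenly spread. Slide 1 held control males 1 to 3, males 6 to 8 at 600 ppm and males 11 and 12 at 1000 ppm. Slide 2 held control females 21 to 23, female 26 at 600 ppm, male 13 at 1000 ppm and males 16 to 18 at 1500 ppm, and slide 3 held the other 8 females, all exposed. Control and 1500 ppm rats of a given sex never shared a slide.

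The question of the exposure comparison was which levels differed from clean air at each dose. No member passed the limma test at any dose, and the largest values, at 1500 ppm, lay between -0.22 and 0.32 on the log2 scale. rno-let-7b-5p had a lowest, median and highest log2 level of 12.22, 12.53 and 12.95 in control, of 12.19, 12.68 and 12.84 at 600 ppm, of 12.13, 12.76 and 12.85 at 1000 ppm, and of 12.75, 12.87 and 13.07 at 1500 ppm (n = 6 each). The 1500 ppm rats lay at the top of a range that the control group largely covered. Their difference from control was 0.31 ± 0.15 (SE), with a limma adjusted p of 0.498.

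rno-let-7e-5p had the same form. Its lowest, median and highest levels were 9.64, 9.92 and 10.26 in control, 9.65, 10.04 and 10.28 at 600 ppm, 9.57, 10.17 and 10.30 at 1000 ppm, and 10.13, 10.29 and 10.42 at 1500 ppm. The difference at 1500 ppm was 0.32 ± 0.14 (SE, limma adjusted p = 0.498), a fold of 1.25. The control rats fell into a low and a high trio, and the 1500 ppm rats overlapped with the high one.

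rno-miR-98-5p went the other way. Its lowest, median and highest levels were 7.57, 7.98 and 8.32 in control, 7.59, 8.05 and 8.42 at 600 ppm, 7.66, 7.83 and 8.30 at 1000 ppm, and 7.66, 7.73 and 7.82 at 1500 ppm. The 1500 ppm rats all lay inside the control range, close to its lower end, and differed from it by -0.22 ± 0.16 (SE, limma adjusted p = 0.541).

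rno-let-7a-5p had medians of 12.96, 13.08, 13.07 and 13.17 from control to 1500 ppm, with a difference at 1500 ppm of 0.15 ± 0.06 (SE, limma adjusted p = 0.498). The medians of rno-let-7c-5p were 12.83, 12.98, 12.99 and 13.06, those of rno-let-7d-5p 11.26, 11.28, 11.36 and 11.47, and those of rno-let-7i-5p 11.96, 12.05, 12.00 and 12.17. Their differences at 1500 ppm were 0.20 ± 0.10, 0.17 ± 0.10 and 0.20 ± 0.10 (SE), with limma adjusted p of at least 0.498. rno-let-7f-5p had medians of 12.76, 12.81, 12.74 and 12.77 and the smallest difference, 0.02 ± 0.06 (SE, limma adjusted p = 0.884). For all 8 members the groups overlapped at every dose.

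At 600 ppm the members' differences ran from -0.03 to 0.08 with limma adjusted p of 0.996, and at 1000 ppm from -0.04 to 0.09 with limma adjusted p of 0.991. The count was 0 of 8 at each of the 3 doses, where 0% of all 283 miRNAs passed. At an unadjusted p under 0.05 there were 0, 0 and 3 members, against 5, 17 and 26 of all miRNAs, and the methods' t-test at 1.5-fold and unadjusted p under 0.05 called 0 members. The median of the members at 1500 ppm was 0.19, beside 0.00 for all tested miRNAs. The F test for any dose and the slope per 1000 ppm also gave 0 members and 0% of all miRNAs. At an unadjusted p under 0.05 they gave 0 and 2 members, counts not set against those of all miRNAs. Member slopes ran from -0.15 to 0.20 log2 per 1000 ppm.

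**Figure D1:**
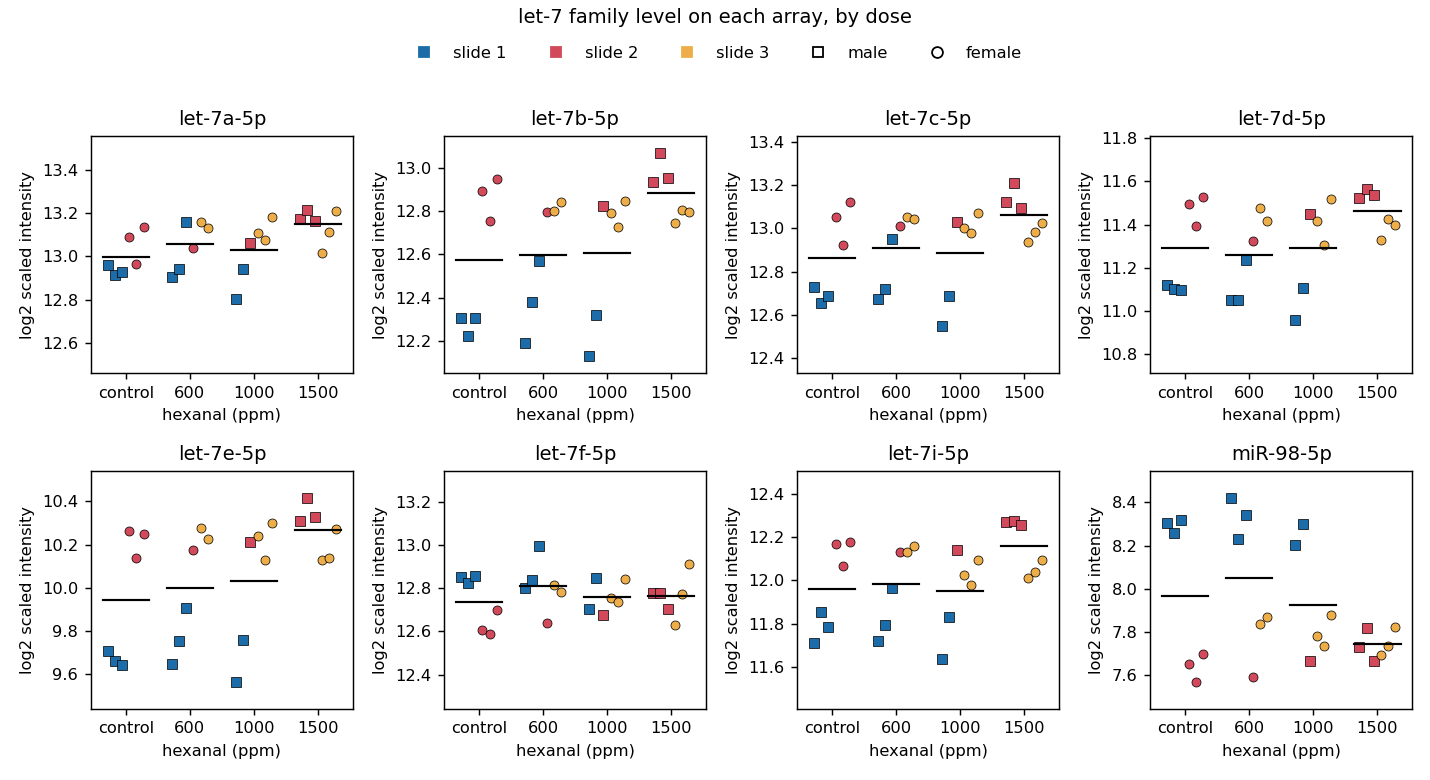
Log2 scaled intensity of each let-7 family member (vertical axis, a span of 1.1 in every panel) on each array by hexanal dose (horizontal axis), with squares for males, circles for females, colours for the 3 slides and a bar for the mean of the 6 arrays of a dose. The males of slide 1 sit below the other arrays for 6 members, apart from some overlap in rno-let-7a-5p and rno-let-7c-5p, and above them for rno-miR-98-5p, in the scaling plotted here.

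The split within the control and 600 ppm groups followed slide and sex alike. Their males all lay on slide 1, and their females lay on slides 2 and 3. Slide accounted for 94.2% of the variance of rno-miR-98-5p over the 24 arrays, dose group for 16.0% and sex for 43.2%, and these 3 shares overlap because the slides were uneven. For rno-let-7e-5p slide accounted for 90.2%, for rno-let-7b-5p 88.4%, for rno-let-7d-5p 84.5%, for rno-let-7i-5p 83.0% and for rno-let-7c-5p 79.6%. The shares were lower for rno-let-7a-5p (52.4%) and rno-let-7f-5p (43.8%). The share of dose group was 7.68% to 25.4% over the 8 members.

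rno-miR-98-5p had a lowest, median and highest level of 8.20, 8.30 and 8.42 on slide 1, of 7.57, 7.66 and 7.82 on slide 2 and of 7.69, 7.80 and 7.88 on slide 3 (n = 8 each). Every array of slide 1 was above every array of the other slides, whatever its dose. rno-let-7b-5p had 12.13, 12.31 and 12.57 on slide 1, 12.76, 12.92 and 13.07 on slide 2 and 12.72, 12.80 and 12.85 on slide 3, so that slide 1 lay below the others. Slides 1 and 2 did not overlap for 5 of the 8 members (rno-let-7b-5p, rno-let-7d-5p, rno-let-7e-5p, rno-let-7i-5p and rno-miR-98-5p), against 28.3% of all 283 miRNAs. Slides 1 and 3 did not overlap for 5 members against 21.2% of all miRNAs, and slides 2 and 3 for 0 against 0.353%.

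Males lay on both slides 1 and 2, which gives a slide difference within 1 sex, although the doses of these rats differed. In the limma fit of slide 2 minus slide 1 in males, 6 members were higher, where 28.6% of all miRNAs were called higher, and 1 was lower, where 22.6% were called lower. rno-let-7b-5p was higher by 0.64 ± 0.07 (SE, adjusted p = 1.49e-05) and rno-let-7e-5p by 0.61 ± 0.06 (adjusted p = 4.11e-06), and both kept that sign under all 6 other scalings and summaries. rno-let-7i-5p was higher by 0.45, rno-let-7d-5p by 0.43 and rno-let-7c-5p by 0.41, and each changed sign with the series table, which is not scaled between arrays, to -0.08, -0.06 and -0.05. rno-let-7a-5p was higher by 0.21 (adjusted p = 0.00717), with the sign turned by quantile normalization (-0.08) and by the series table (-0.26). rno-miR-98-5p was lower by 0.58 ± 0.05 (SE, a difference of -0.58, adjusted p = 7.36e-07) and kept that sign under every scaling. rno-let-7f-5p did not pass (-0.11 ± 0.05, adjusted p = 0.0814), and it was 0.25 with the brightest probe alone and 0.05 with the percentile over all probes.

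The median of all tested miRNAs in this slide difference was 0.03 in the scaling used here, 0.03 with quantile normalization, 0.21 with normexp on the median signal and -0.50 with the series table. Members also moved relative to that median. With quantile normalization rno-let-7a-5p stood at -0.11, rno-let-7c-5p at 0.16 and rno-let-7f-5p at -0.39 relative to it. With normexp these values were -0.02, 0.17 and -0.32. Relative to the median of the series table, the members stood at 0.61 (rno-let-7b-5p), 0.62 (rno-let-7e-5p), 0.45 (rno-let-7c-5p), 0.45 (rno-let-7d-5p), 0.42 (rno-let-7i-5p), 0.24 (rno-let-7a-5p), 0.00 (rno-let-7f-5p) and -0.64 (rno-miR-98-5p). Of the calls of all miRNAs, 55.9% were higher, and this share ran from 0.526% to 85.4% over the 6 other scalings and summaries.

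The ratio of 2 members on the same array does not depend on how an array is scaled as a whole. The log2 ratio of rno-let-7b-5p over rno-miR-98-5p, given relative to its mean on slide 1, ran from -0.24 to 0.22 on slide 1, from 1.15 to 1.28 on slide 2 and from 0.96 to 1.06 on slide 3. The ratio therefore took 3 ranges that did not overlap. The ratio of rno-let-7a-5p over rno-let-7f-5p, 2 members that differ by G12A, ran from -0.03 to 0.06, from 0.27 to 0.38 and from 0.20 to 0.28 on the same scale. Its spread within a slide was 0.02 to 0.04 (SD, n = 8).

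2 cells of dose and sex were split over slides. Among the males at 1000 ppm, male 13 on slide 2 had a level of 7.66 for rno-miR-98-5p, while males 11 and 12 on slide 1 had 8.20 and 8.30. The level of rno-let-7b-5p in male 13 was 12.82, against 12.13 and 12.32. Male 13 thus lay with the slide 2 rats for both, and its distance from the mean of the other males ran over the members from -0.59 (rno-miR-98-5p) to 0.60 (rno-let-7b-5p). Among the females at 600 ppm, female 26 on slide 2 lay 0.26 below the mean of females 27 and 28 on slide 3 for rno-miR-98-5p (a difference of -0.26), and the other members differed by -0.16 to -0.02. Each of these is a single rat against 2, and no test was made of it.

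Slides 2 and 3 were also compared in females, although the doses of these rats differed. Slide 2 held 3 control females and 1 at 600 ppm, and the females of slide 3 were all exposed. In the limma fit of slide 3 minus slide 2 in females 0 members passed, where 2.12% of all miRNAs were called higher and 2.83% lower. At an unadjusted p under 0.05 there were 2 members, a count not set against that of all miRNAs. rno-miR-98-5p differed by 0.17 ± 0.04 (SE, adjusted p = 0.0503) and rno-let-7f-5p by 0.15 ± 0.05 (adjusted p = 0.0906). The other 6 members lay between -0.07 and 0.07.

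In the scaling used here, the slide difference in males ordered with base composition among the members. It was -0.58 and -0.11 in the 2 members with 7 G or C bases, 0.21 in the member with 8, 0.41 to 0.61 in the 4 members with 9 and 0.64 in rno-let-7b-5p with 10. Over the 8 members, which share most of their sequence and were read on the same arrays, Pearson's r was 0.92 and Spearman's rho 0.93. Over the other 241 tested miRNAs with a RefSeq sequence, r was 0.20 and rho 0.16, a weak relation. The order at the top varied. rno-let-7e-5p stood above rno-let-7b-5p with quantile normalization (0.56 and 0.47), the brightest probe (0.89 and 0.70), the total gene signal and the series table. It stood below with normexp and with the percentile over all probes. The 2 probes for the 1 sequence of rno-let-7f-5p also differed (0.25 and -0.47). Whether base composition had a part in the slide difference was not tested.

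**Figure D2:**
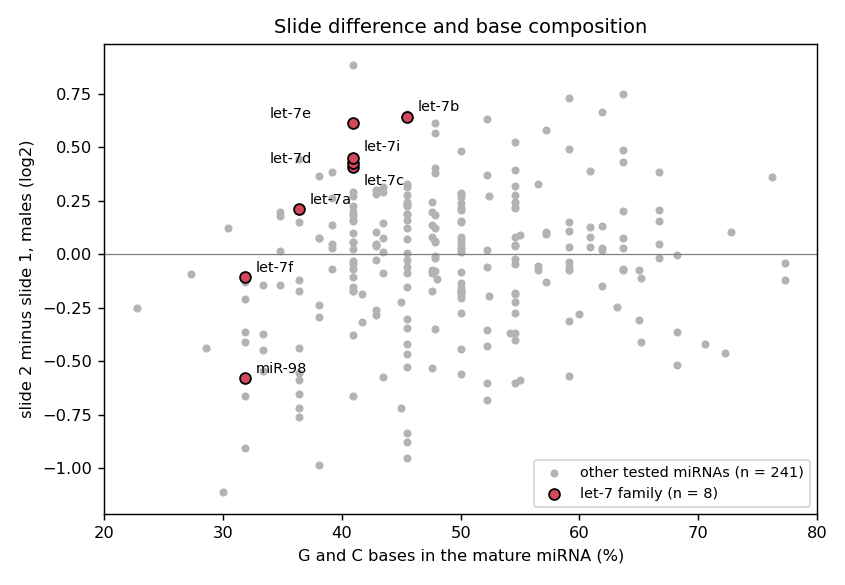
Difference of slide 2 minus slide 1 in males (vertical axis, log2) against the percentage of G and C bases in the mature miRNA (horizontal axis), with the 8 members in red and the other 241 tested miRNAs that have a RefSeq sequence in grey. In the scaling plotted here, the red points climb from -0.58 at 31.8% to 0.64 at 45.5%, while the grey points spread widely at every composition.

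The 2 probes of a member did not move by the same amount. rno-let-7e-5p differed between slides 2 and 1 in males by 0.33 ± 0.06 (SE) at its first probe in order of identifier and by 0.89 ± 0.06 at its second. rno-let-7c-5p differed by 0.66 and 0.16, rno-let-7d-5p by 0.23 and 0.62, and rno-let-7i-5p by 0.33 and 0.57. The smallest gap between probes was in rno-let-7b-5p (0.58 and 0.70).

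rno-let-7a-5p differed by 0.43 ± 0.06 at its first probe (SE, limma adjusted p = 8.04e-05) and by -0.01 ± 0.05 at its second (adjusted p = 0.879). rno-let-7f-5p differed by 0.25 ± 0.05 (adjusted p = 0.00171) at its first and by -0.47 ± 0.04 (adjusted p = 1.32e-06) at its second, so its small mean was taken over probes that both passed the test in opposite directions. rno-miR-98-5p differed by -0.48 and -0.68. The gap between the probes of a member had a median of 0.42 (range 0.12 to 0.72), beside 0.28 over the other 207 miRNAs with 2 kept probes. The spots of a single probe on 1 array had a median SD of 0.04 to 0.12 over the 16 probes, less than most of these gaps.

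**Figure D3:**
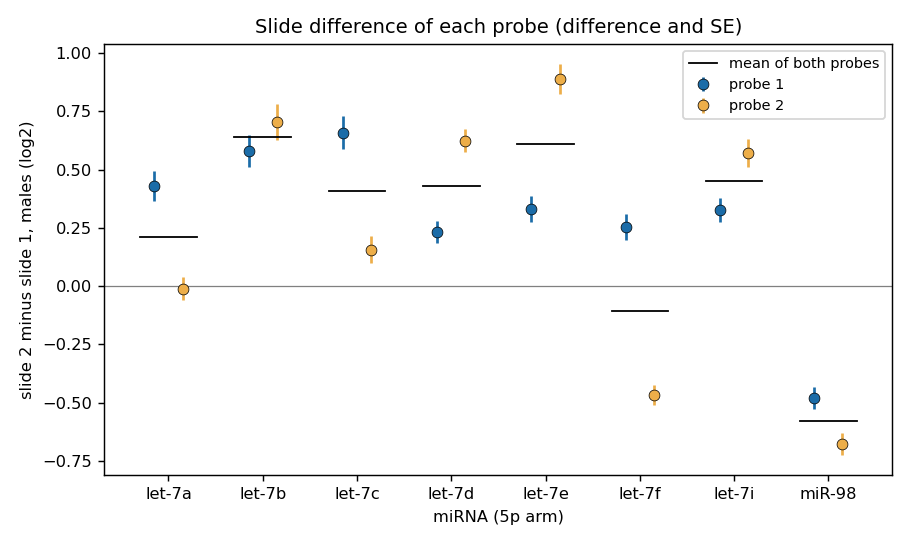
Difference of slide 2 minus slide 1 in males (vertical axis, log2) for each of the 2 probes of a member (points with SE, probe 1 and probe 2 in order of identifier) and for their mean (bar). rno-let-7f-5p has a probe at 0.25 and a probe at -0.47, and the probes of rno-let-7a-5p are at 0.43 and -0.01.

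Once the mean of each slide was removed, the probes ran together. Over the 24 arrays Pearson's r between the 2 probes of a member was 0.85 to 0.95 after that step in all 8 members. As measured it ran from -0.52 in rno-let-7f-5p and 0.20 in rno-let-7a-5p to 0.99 in rno-let-7b-5p and rno-miR-98-5p. The points share their arrays and scaling, so these are descriptions.

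The members behaved alike in the same way. As measured, r over 24 arrays was negative in 11 of 28 pairs, with a lowest value of -0.87 between rno-let-7b-5p and rno-miR-98-5p and a highest of 0.99 between rno-let-7b-5p and rno-let-7e-5p (median 0.86). With slide means removed all 28 were positive, from 0.54 for rno-let-7b-5p and rno-miR-98-5p to 0.96 for rno-let-7a-5p and rno-let-7c-5p (median 0.82). Pairs of miRNAs outside the family were not examined, so this is not shown to be particular to the family. After the same step, r with the mean of the members' centred levels was 0.84 for rno-miR-24-3p and -0.60 for rno-miR-150-3p, the highest and lowest outside the family. rno-miR-98-5p and rno-let-7f-5p, the neighbours on the X chromosome, had an r of 0.69 as measured and 0.68 with slide means removed. Members with few differing bases share part of what their probes can bind, and how much of each signal came from another member was not tested.

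**Figure D4:**
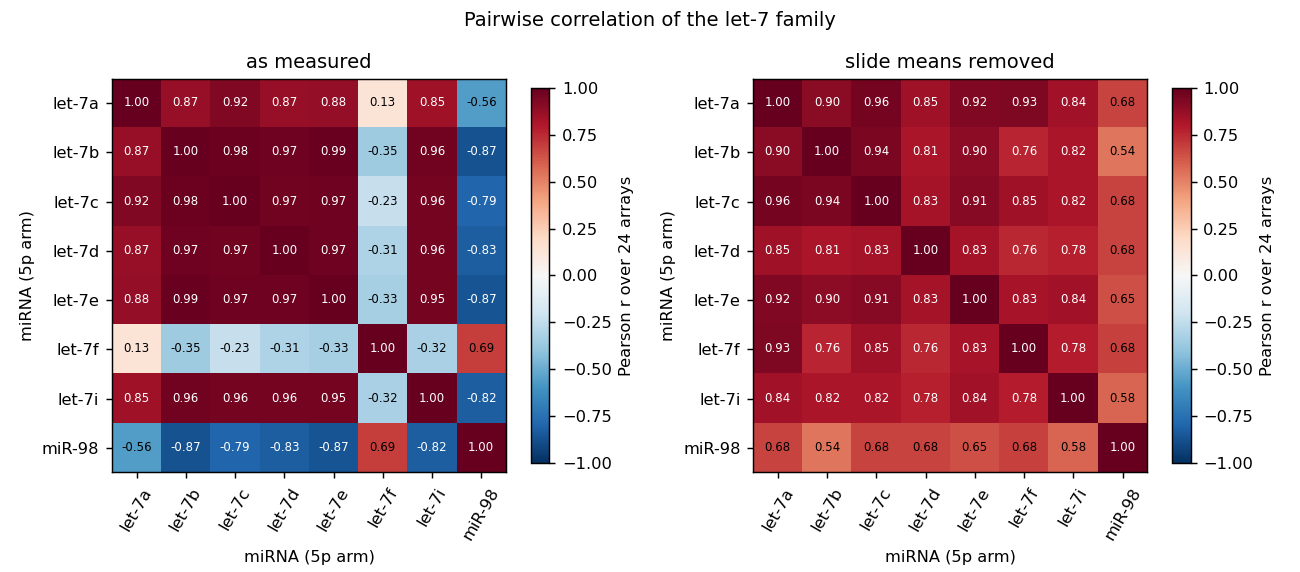
Pearson's r over 24 arrays (colour and printed value) for each pair of members, as measured on the left and with the mean of each slide removed on the right. On the left rno-miR-98-5p is negative with 6 members and rno-let-7f-5p with 5, and on the right every pair is positive, from 0.54 upwards.

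Within males the comparison of 1500 ppm with control gave differences of up to 0.71, and it was also a comparison of slide 2 with slide 1. The levels of rno-let-7b-5p were 12.31, 12.22 and 12.31 in control males and 12.94, 13.07 and 12.95 in 1500 ppm males. The groups did not overlap, and the difference was 0.71 ± 0.12 (SE, n = 3 each, limma adjusted p = 0.000491), a fold of 1.63. rno-let-7e-5p had 9.71, 9.66 and 9.64 in control males and 10.31, 10.42 and 10.33 at 1500 ppm, a difference of 0.68 ± 0.11 (SE, limma adjusted p = 0.000491). rno-miR-98-5p had 8.30, 8.26 and 8.32 in control males and 7.73, 7.82 and 7.66 at 1500 ppm, a difference of -0.56 ± 0.12 (SE, limma adjusted p = 0.00122). For these 3 members every 1500 ppm male lay on the same side of every control male. In the series table, which is not scaled between arrays, the difference was 0.01 for rno-let-7b-5p and 0.02 for rno-let-7e-5p, and neither passed the test. The median of all tested miRNAs was -0.66 there, and relative to it these 2 members stood at 0.66 and 0.67.

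rno-let-7i-5p differed by 0.49 ± 0.09, rno-let-7c-5p by 0.45 ± 0.09, rno-let-7d-5p by 0.43 ± 0.09 and rno-let-7a-5p by 0.25 ± 0.08 (SE). These 4 turned negative in the series table (-0.22, -0.18, -0.22 and -0.39), as did rno-let-7a-5p under quantile normalization (-0.08). Relative to the series table median of all tested miRNAs, the 4 stood at 0.44, 0.48, 0.44 and 0.26. In all, 6 members were called higher, where 20.1% of all 283 miRNAs were, and rno-miR-98-5p was called lower, where 15.9% were. rno-let-7f-5p was not called (-0.09 ± 0.07, limma adjusted p = 0.366), and with the brightest probe alone it was 0.27 and passed. The share of the calls of all miRNAs that were higher was 55.9%, and it ran from 0.508% to 81.2% over the 6 other scalings and summaries. At 600 and 1000 ppm within males 0 members passed, where 0% and 1.06% of all miRNAs did.

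With slide as a fixed block the same difference at 1500 ppm in males was 0.11 ± 0.15 for rno-let-7b-5p, 0.13 ± 0.13 for rno-let-7e-5p and 0.03 ± 0.11 for rno-miR-98-5p (SE). All 8 members then lay between 0.01 and 0.13, none passed (0 of 8, with 0% of all miRNAs and 0 members at an unadjusted p under 0.05), and the 95% interval for rno-let-7b-5p ran from -0.20 to 0.42. This block takes the offset of slide 2 from slide 1 in males from 1 rat, male 13. With slide as a random block 0 members passed, where 2 of all 283 miRNAs did. In that fit 6 members had an unadjusted p under 0.05, a count not set against that of all miRNAs. In males, exposure at 1500 ppm and the move from slide 1 to slide 2 cannot be told apart beyond what that rat shows.

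Within females 0 members passed at 1500 ppm, where 0% of all miRNAs did, and 0 had an unadjusted p under 0.05. rno-let-7b-5p had levels of 12.89, 12.76 and 12.95 in control females and 12.75, 12.80 and 12.79 at 1500 ppm, a difference of -0.09 ± 0.12 (SE). The female groups overlapped, and the members' differences ran from -0.09 to 0.14. At 600 and 1000 ppm in females 0 members passed, with 0% of all miRNAs at both doses.

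Control and exposed rats of 1 sex shared a slide among the males of slide 1 and the females of slide 2. On slide 2 the only exposed female was female 26 at 600 ppm, and no test was made. Her level lay below all control females for rno-let-7d-5p (11.33, against 11.39 to 11.53) and inside their range for the other members. In the males of slide 1, the 3 rats at 600 ppm differed from the 3 controls by 0.00 to 0.10 and the 2 rats at 1000 ppm by -0.07 to -0.01. In limma 0 members passed at either dose, where 0.353% and 0% of all miRNAs did, and 0 had an unadjusted p under 0.05. In the females of slide 3, which held no controls, the differences were -0.11 to -0.02 for 1000 against 600 ppm, -0.10 to -0.03 for 1500 against 600 ppm and -0.05 to 0.02 for 1500 against 1000 ppm. These also gave 0 members, 0% of all miRNAs and 0 members at an unadjusted p under 0.05. With slide as a fixed block over all rats of both sexes, the members' differences were -0.01 to 0.08 at 600 ppm, -0.03 to 0.03 at 1000 ppm and 0.01 to 0.08 at 1500 ppm, with 0 members and 0% of all miRNAs passing at each dose. At 1500 ppm the 95% interval of that fit was -0.06 to 0.21 for rno-let-7b-5p and -0.07 to 0.14 for rno-miR-98-5p. That fit had no term for sex, while slide 1 held only males and slide 3 only females. Its slide offsets therefore also carry any difference between the sexes, and these intervals assume that there was none.

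**Figure D5:**
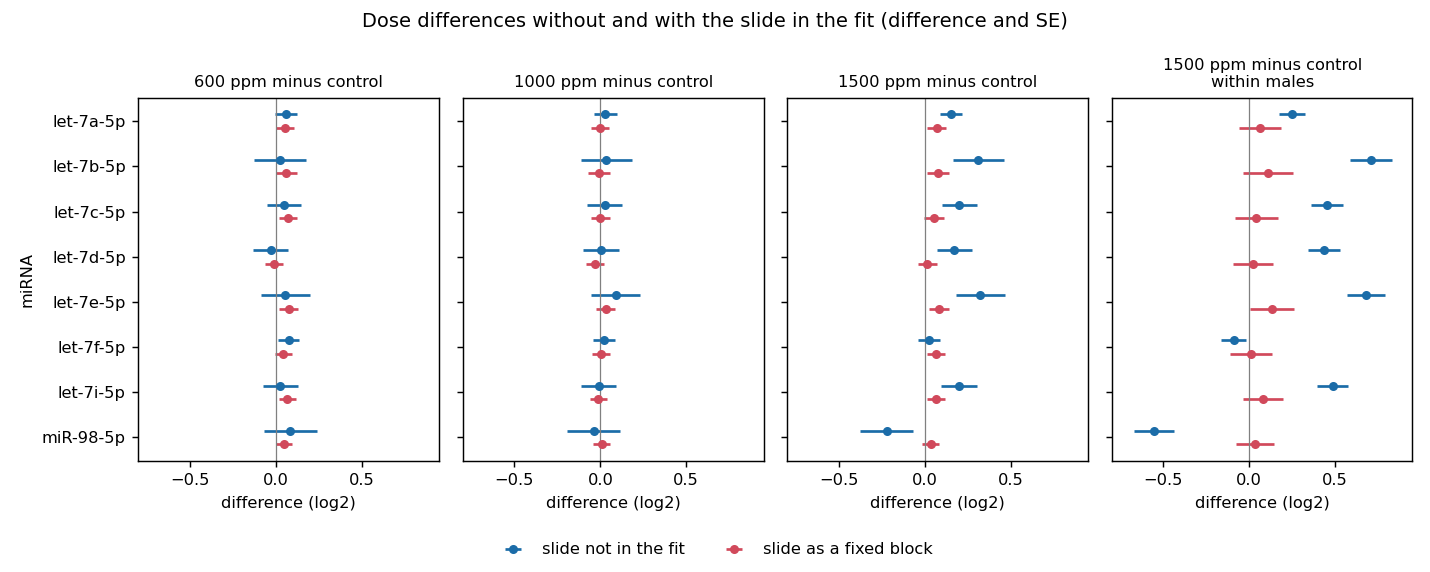
Difference from control (horizontal axis, log2, points with SE) for each member at 3 doses in all rats and at 1500 ppm within males, from the fit without the slide (blue) and with slide as a fixed block (red). Within males the blue points reach 0.71 and -0.56, and the red points all lie between 0.01 and 0.13.

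Male and female rats were compared with the dose group in the fit, and most males lay on slide 1 while most females lay on slide 3. rno-miR-98-5p was higher in males, by 0.37 ± 0.08 (SE, limma adjusted p = 0.00160), where 16.3% of all miRNAs were called higher, and this direction held under every scaling. rno-let-7b-5p (-0.29 ± 0.09, limma adjusted p = 0.0106), rno-let-7e-5p (-0.30 ± 0.08), rno-let-7d-5p (-0.19 ± 0.06) and rno-let-7c-5p (-0.17 ± 0.06) were lower in males, where 27.6% were called lower. rno-let-7a-5p (-0.09), rno-let-7i-5p (-0.15) and rno-let-7f-5p (0.07) did not pass. Of the calls of all miRNAs 37.1% were higher in males, and this share ran from 23.1% to 92.3% over the 6 other scalings and summaries. With slide as a fixed block all 8 members lay between 0.12 and 0.16, which turned the sign of the 4 that were lower, and 0 of 8 passed, where 3.53% of all miRNAs did. 1 member, rno-miR-98-5p, had an unadjusted p under 0.05 in that fit, a count not set against that of all miRNAs. Only slide 2 held both sexes, with its males at 1000 and 1500 ppm and its females in control and at 600 ppm. The sexes on it shared no dose, which limits this fit.

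The difference between the sexes in their dose response was tested as an interaction. 6 members passed the F test (rno-let-7b-5p, rno-let-7c-5p, rno-let-7d-5p, rno-let-7e-5p, rno-let-7i-5p and rno-miR-98-5p, limma adjusted p of 0.0143 to 0.0280), where 25.1% of all miRNAs did. Without male 18 at 1500 ppm the count was 3. At 1500 ppm the response of males minus that of females was 0.79 ± 0.17 (SE) for rno-let-7b-5p and -0.67 ± 0.17 for rno-miR-98-5p. In that contrast 5 members were called higher, where 21.2% of all miRNAs were, and 1 lower, where 14.1% were. In the series table, which is not scaled between arrays, the 5 turned negative. The median of all tested miRNAs there was -0.66 for 1500 ppm within males. The members were not set against a median for this contrast. With slide as a fixed block 0 members passed the F test, with 0% of all miRNAs and 0 members at an unadjusted p under 0.05.

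Other miRNAs of the same precursors and clusters were taken as a list. Of the 9 let-7 3p arms on the array, counting miR-98-3p, 3 were tested and the others were above background on 0 to 2 arrays. rno-let-7a-1-3p, rno-let-7d-3p and rno-let-7i-3p had differences of -0.25 to 0.01 at 1500 ppm, and 0 of 3 passed at any dose. On slide 2 minus slide 1 in males 2 of the 3 were lower and none higher, where 22.6% of all miRNAs were called lower and 28.6% higher. Their median was -0.44 beside 0.03 for all tested miRNAs. These 3 had low mean log2 levels of 4.69, 4.46 and 4.11, not far above the floor set in processing. The 5p arms rno-let-7a-5p, rno-let-7d-5p and rno-let-7i-5p were higher there, with the sign changes given above.

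The 5 partners that share clusters with let-7 genes, rno-miR-99a-5p, rno-miR-99b-5p, rno-miR-100-5p, rno-miR-125a-5p and rno-miR-125b-5p, were above background on all arrays. Their differences at 1500 ppm were -0.04 to 0.20 (median 0.07), and 0 of 5 passed at any dose. On slide 2 minus slide 1 in males 2 were higher and 2 lower, from -0.18 to 0.43, where 28.6% and 22.6% of all miRNAs were.

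Red cell markers moved with the same slides. Of 3 tested, rno-miR-451-5p and rno-miR-144-3p, both of which mark red cells, were lower on slide 2 than on slide 1 in males (-0.56 and -1.11), and rno-miR-144-5p was not called (0.12). For this list and those below, 28.6% of all miRNAs were called higher in that comparison and 22.6% lower. The summed log2 level of the red cell markers ran from 11.03 to 11.63 on slide 1, from 10.05 to 10.88 on slide 2 and from 10.47 to 11.39 on slide 3. The 75th percentile used for scaling ran from 677 to 1226 scanner units on slide 1, from 662 to 766 on slide 2 and from 772 to 1063 on slide 3. Of 4 leukocyte markers tested, 1 was higher and 1 lower on slide 2, with sums of 11.65 to 12.00, 11.64 to 12.29 and 11.90 to 12.21 on the 3 slides. Of 3 striated muscle markers tested, 0 were called, with sums of 7.41 to 9.16, 7.00 to 9.61 and 7.22 to 10.38, and rno-miR-206-3p was above background on 0 arrays. Of the 5 lung markers, 0 were called. The part of these lists and of the percentile in the members' values was not tested.

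The family level was taken as the mean over members of the log2 level minus that member's own mean. Among 203 other miRNAs above background on all arrays, the 5 with the highest Pearson r to it over 24 arrays were rno-miR-24-3p (0.92), rno-miR-103-3p (0.90), rno-miR-324-5p (0.89), rno-miR-151-5p (0.89) and rno-miR-27a-3p (0.88). The 3 lowest were rno-miR-32-5p (-0.81), rno-miR-191a-5p (-0.79) and rno-miR-3068-3p (-0.76). With slide means removed, the highest were rno-miR-24-3p (0.84), rno-miR-23a-3p (0.82), rno-miR-126a-3p (0.77), rno-miR-324-5p (0.75) and rno-miR-27b-3p (0.73), so rno-miR-24-3p and rno-miR-324-5p appeared in both. The lowest were then rno-miR-150-3p (-0.60), rno-miR-874-3p (-0.51) and rno-miR-142-5p (-0.47). These values describe arrays that share a scaling, and among the members rno-let-7f-5p had an r with the family level of -0.04 as measured and 0.90 with slide means removed. For rno-miR-98-5p these were -0.67 and 0.74. Each member is itself part of the family level, so these r cannot be set against those of the other miRNAs.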

How the data were processed

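The authors deposited 1 scanner file per array from Agilent Feature Extraction 11.5.1.1, whose processed intensity is the Cy3 brightness of a spot after background correction, with no normalization between arrays. The deposited series table of intensities holds the total gene signal, with lower values set to 1. The study's methods do not describe these arrays.

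Control spots and outlier flags (3.94% of spots) were left out. The 75th percentile of each array, over the 394 probes that all 24 arrays read well above background, was brought to 865. Lower values were raised to a floor of 11.3, and log2 was taken. Probes above background on at least 6 arrays were kept and averaged for each miRNA.

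The 283 miRNAs left were fitted with limma 3.58.1 in R 4.3.3 (two-sided, Benjamini-Hochberg over all 283, threshold 0.05), with the sexes pooled for the dose groups. Slide was read from the files. All 8 members are named, and likeness to them was ranked by Pearson r. Lists held 3p arms, cluster partners and cell type markers (lung, other tissues, muscle, red cells, leukocytes), with rno-miR-486 and rno-miR-155-5p not analysed here. The members, lists and tests were chosen with earlier results of these data known.

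The alternatives were other scalings, background corrections, filters and probe summaries, slide as a fixed or random block, sex as a covariate, the methods' t-test and leaving out each array. Fitting each probe on its own was added after seeing the data.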

Additional observations from a re-analysis of the deposited data

Results flagged for a closer look

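In 6 members the dose response differed between the sexes by the interaction test, which 25.1% of all 283 miRNAs passed. In the contrast of the 1500 ppm response between the sexes, 21.2% of all miRNAs were called higher and 14.1% lower. The 1500 ppm response of males minus that of females was 0.79 for rno-let-7b-5p, 0.50 for rno-let-7c-5p, 0.52 for rno-let-7d-5p, 0.72 for rno-let-7e-5p, 0.57 for rno-let-7i-5p and -0.67 for rno-miR-98-5p on the log2 scale (limma adjusted p of 0.00361 to 0.00762 over these contrasts). The 5 positive values were negative in the series table, which is not scaled between arrays. The median of all tested miRNAs there was -0.66 for 1500 ppm within males, and the 5 were not set against a median for this contrast. With slide as a fixed block the values of all 8 members were 0.03 to 0.24 and 0 passed. Control and 1500 ppm males lay on different slides, as did control and 1500 ppm females.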

How the results depend on the processing

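The counts of 0 members at each dose, for any dose, for the trend, within females and within slides were also 0 under every alternative run, left-out arrays included. For 1500 ppm within males, 7 members passed with any array left out, 3 in the series table, all lower (rno-let-7a-5p, rno-let-7f-5p and rno-miR-98-5p), and 0 with slide as a fixed or a random block. The median of all tested miRNAs in the series table was -0.66 for that comparison. Relative to it these 3 members stood at 0.26, 0.01 and -0.63. For male minus female, 5 became 8 with the brightest probe, 3 with no filter, 2 with the total gene signal, 1 with the percentile over all probes, 1 in the series table, and 0 with normexp or with slide as a fixed or random block (4 to 7 with an array left out). Over all tested miRNAs the calls moved too, from 124 to 147 with the brightest probe and 77 of 719 with no filter. They were 96 with the total gene signal, 83 with the percentile over all probes and 52 in the series table. With normexp they were 8, and with slide as a fixed and a random block 10 and 0. For the interaction, 6 became 3 with no filter, 2 in the series table, and 0 with normexp or either slide block (3 to 6 with an array left out, 3 without male 18 at 1500 ppm). Of all 283 miRNAs, 25.1% passed it in the scaling used here and 0% with slide as a fixed block. The other counts for the interaction are not set against those of all miRNAs. The slide differences within a sex gave 7 calls, and 7 to 9 with an array left out.

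Signs turned as follows, with the cause not tested. The series table holds the total gene signal without scaling between arrays. With that signal scaled, rno-let-7a-5p, rno-let-7c-5p, rno-let-7d-5p and rno-let-7i-5p were 0.22, 0.43, 0.43 and 0.40 for slide 2 minus slide 1 in males. For 1500 ppm within males they were 0.26, 0.48, 0.44 and 0.44. For slide 2 minus slide 1 in males, rno-let-7a-5p was -0.077 under quantile normalization, -0.26 in the series table and -0.011 at its second probe, rno-let-7c-5p -0.053, rno-let-7d-5p -0.057 and rno-let-7i-5p -0.081 in the series table, and rno-let-7f-5p 0.25 with its first, brightest probe. For 1500 ppm within males, the series table gave -0.39, -0.18, -0.22 and -0.22 for rno-let-7a-5p, rno-let-7c-5p, rno-let-7d-5p and rno-let-7i-5p, quantile normalization -0.076 for rno-let-7a-5p, the brightest probe 0.27 for rno-let-7f-5p, and the fixed block 0.032 for rno-miR-98-5p. For the 1500 ppm response between sexes, the series table gave -0.60, -0.081, -0.28, -0.29, -0.10 and -0.30 for rno-let-7a-5p, rno-let-7b-5p, rno-let-7c-5p, rno-let-7d-5p, rno-let-7e-5p and rno-let-7i-5p, and the fixed block 0.18 for rno-miR-98-5p. For male minus female, the fixed block gave 0.12, 0.14, 0.16 and 0.13 for rno-let-7b-5p, rno-let-7c-5p, rno-let-7d-5p and rno-let-7e-5p, and the brightest probe -0.12 for rno-let-7f-5p. In 101 other cases a sign changed in a member called in neither setting.

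Of all 283 miRNAs, 102 were called for 1500 ppm within males, 16 with normexp and 197 in the series table. For male minus female 124 became 8 with normexp. No paired analysis was possible because the groups share no replicate numbers. With 3 rats of a sex per dose, the members' standard errors within a sex were 0.07 to 0.12 log2. The number of arrays limits the precision.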
